A study of Gallus gallus with 65 samples.

Results

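Beta-catenin (CTNNB1) and the DNA-binding factors it works with were described in the sensory epithelium of the utricle, which senses balance, of chicks as it recovered from the hair cell toxin neomycin. The members were the probes named CTNNB1, LEF1, TCF7, TCF7L1 or TCF7L2 on a printed slide of human transcription factor genes. Of these 5 genes, 4 were on the slide (CTNNB1, LEF1, TCF7 and TCF7L2), out of 1507 gene probes in all. There was no probe named TCF7L1. CTNNB1 was chosen by its measured late rise in these data, so its ratios are given as a description with no test. LEF1, TCF7 and TCF7L2 were chosen by name, and their ratios were tested.

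In the neomycin groups, utricles of White Leghorn chicks (10 to 21 days after hatching) were cultured for 24 hr with 1 mM neomycin sulfate and then collected at once (0 hr) or after 24 or 48 hr of recovery without the drug. The time-matched control groups were cultured in the same medium without neomycin and collected at the same times. Sensory epithelia were freed with thermolysin and pooled, and their amplified RNA was labelled with Cy3 or Cy5, so that each of 65 arrays carried neomycin RNA against control RNA of the same time. There were 3 biological replicates at each time. For replicates 1, 2 and 3, the 0 hr group had 4, 11 and 10 arrays, the 24 hr group 7, 8 and 6, and the 48 hr group 5, 8 and 6. A digit in the array's title marks the dye orientation. By the image names in the headers, Cy3 held the neomycin RNA on 34 arrays (digit 3) and Cy5 held it on 31 (digit 5). Each value below is the log2 ratio of neomycin over control, and a replicate's value weighs both orientations equally.

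Beta-catenin has a pair of roles. At the cell membrane it links cadherins to the actin cytoskeleton, and in the nucleus it is the coactivator of the canonical Wnt pathway. Without a Wnt signal it is held in a complex with APC, axin and the kinase GSK3B and is degraded, and with the signal it accumulates, enters the nucleus and binds LEF1, TCF7, TCF7L1 or TCF7L2, the high-mobility-group proteins that sit on Wnt target genes. These factors repress their targets when bound to corepressors of the TLE family and activate them when bound to beta-catenin. Beta-catenin is controlled mainly through the stability of the protein, and the arrays measure only its RNA, which need not follow its activity. In the inner ear the pathway is known for its part in the patterning of the early ear and in the division of supporting cells, from which birds replace lost hair cells.

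All 4 members gave weak signals. The median brightness over arrays (the geometric mean of both dyes, in raw intensity units) was 590.9 for CTNNB1, 639.7 for LEF1, 610.8 for TCF7L2 and 495.3 for TCF7, beside a median of 634.8 over all gene probes. TCF7 fell among the dimmest 15% of probes, which were left out of the fit, so 1281 probes were tested and LEF1 and TCF7L2 were among them. Over the 65 arrays the CTNNB1 spots lay at a median of 1.91 times their local background in the neomycin channel and 1.81 times in the control channel. The same medians were 1.53 and 1.64 for LEF1, 1.40 and 1.46 for TCF7, and 1.66 and 1.77 for TCF7L2. Each probe was printed as a pair of spots, and across the 65 arrays the log2 ratios of the pair correlated at 0.94 for CTNNB1, 0.77 for LEF1, 0.61 for TCF7 and 0.78 for TCF7L2. This is a description, since both spots of a pair share an array and its RNA.

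CTNNB1 was near its control level at 0 and 24 hr and high at 48 hr in 2 of 3 replicates. At 0 hr its log2 ratio was -0.12, 0.02 and -0.35 in replicates 1, 2 and 3, and at 24 hr it was -0.12, -0.15 and 0.07. At 48 hr it was -0.12 in replicate 1, 0.77 in replicate 2 and 1.80 in replicate 3. The last 2 values, which are 1.71-fold and 3.48-fold, stood above all 6 values of the earlier times, which ran from -0.35 to 0.07, while replicate 1 at 48 hr lay inside that range. The means at 0, 24 and 48 hr were -0.15 ± 0.19, -0.07 ± 0.12 and 0.82 ± 0.96 (SD, n = 3 replicates each). The late difference, 48 hr minus the mean of 0 and 24 hr, was 0.93, the highest of the 1281 tested probes. The SD of the 48 hr replicates was larger than their mean.

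**Figure D1:**
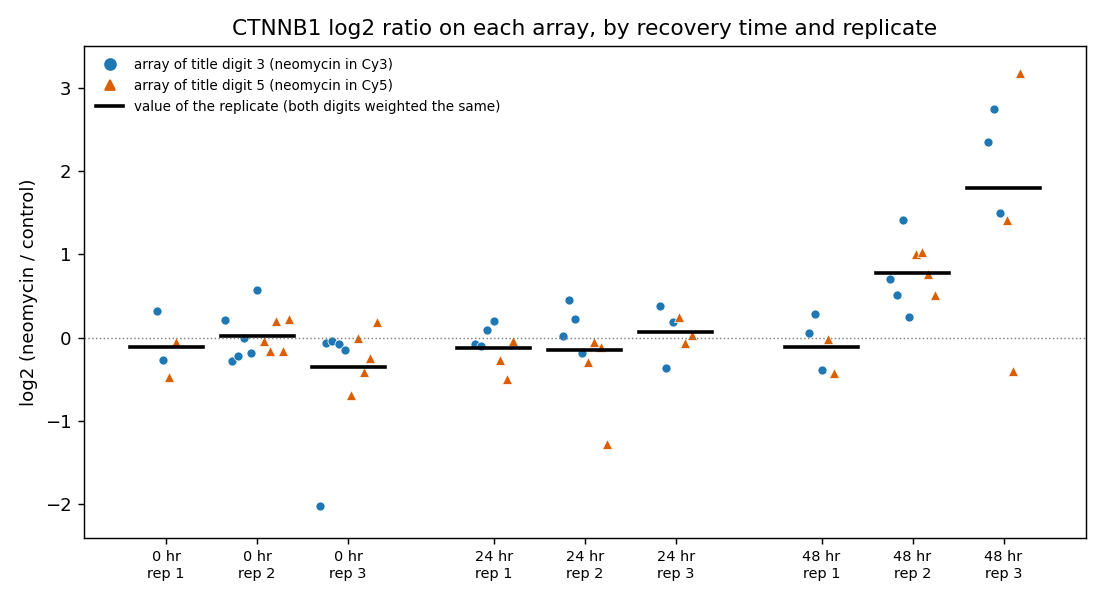
CTNNB1 log2 ratio of neomycin over control (vertical axis) on each of the 65 arrays, by recovery time and biological replicate (horizontal axis). Circles are arrays of digit 3, triangles arrays of digit 5 and black bars the values of the replicates; the bars of 48 hr replicates 2 and 3 stand at 0.77 and 1.80 and the other 7 between -0.35 and 0.07.

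The arrays within each replicate showed the same division. The ratio in 48 hr replicate 2 was above 0 on 8 of 8 arrays, between 0.25 and 1.41, and it averaged 0.72 over the digit 3 arrays and 0.83 over the digit 5 arrays. For 48 hr replicate 3 it was above 0 on 5 of 6 arrays, with 1.49, 2.35 and 2.75 on the digit 3 arrays and 1.41, 3.17 and -0.40 on the digit 5 arrays. In 48 hr replicate 1 it ran from -0.42 to 0.29 over 5 arrays, 2 of them above 0. CTNNB1 was thus above 0 in both dye orientations of replicates 2 and 3. At the earlier times it was above 0 on 7 of 25 arrays at 0 hr and 9 of 21 arrays at 24 hr.

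The array that stood apart in 48 hr replicate 3, array 2 of digit 5, had its grid out of place. Its brightness pattern correlated at 0.145 with that of the other arrays as listed, the lowest of the 65. Against the median pattern of all 65 arrays, it correlated at 0.158 as listed and at 0.639 when the listed rows were moved by 1. At the moved position the paired CTNNB1 spots had log2 ratios of 1.41 and 1.35, with a signal 3.11 times the local background in the neomycin channel and 1.68 times in the control channel. With that position CTNNB1 was above 0 on all 6 arrays of the replicate, the replicate's value was 2.09 and the 48 hr mean was 0.92 ± 1.11 (SD, n = 3). The move was chosen after the values were seen. In 0 hr replicate 3, array 1 of digit 3 and array 1 of digit 5 had patterns correlating at 0.184 and 0.189 with the others. Moves of up to 2 rows, the only ones tried, did not restore them. Without these arrays the CTNNB1 value of 0 hr replicate 3 was -0.10 in place of -0.35. On the same arrays TCF7L2 was -1.51 and -0.71, against -0.16 to 1.65 on the rest of that replicate. Its value of 0.02 in that replicate includes these low arrays and would be higher without them. LEF1 was -0.10 and 0.08 on them, and TCF7 was -0.01 and 0.09.

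The channels were also read one by one. The neomycin channel of the CTNNB1 spots lay at a median of 5.39 times local background in 48 hr replicate 3, and the control channel at 2.24 times. The medians of 48 hr replicate 2 were 2.72 in the neomycin channel and 1.83 in the control channel, and those of 48 hr replicate 1 were 1.43 and 1.36. The neomycin channel of replicate 3 was the brightest of the 9 replicates by this measure, and the next was 2.72. The control channel of the same arrays was within the range of the others, 1.23 to 2.79. Brightness over both dyes reached 1377 to 2867 on the other 5 arrays of 48 hr replicate 3, against 264 to 638 on the arrays of 48 hr replicate 2, so the ratio of replicate 2 was read from dim spots. In pooled tissue, more RNA per cell and a larger share of the cells that hold it cannot be told apart.

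**Figure D2:**
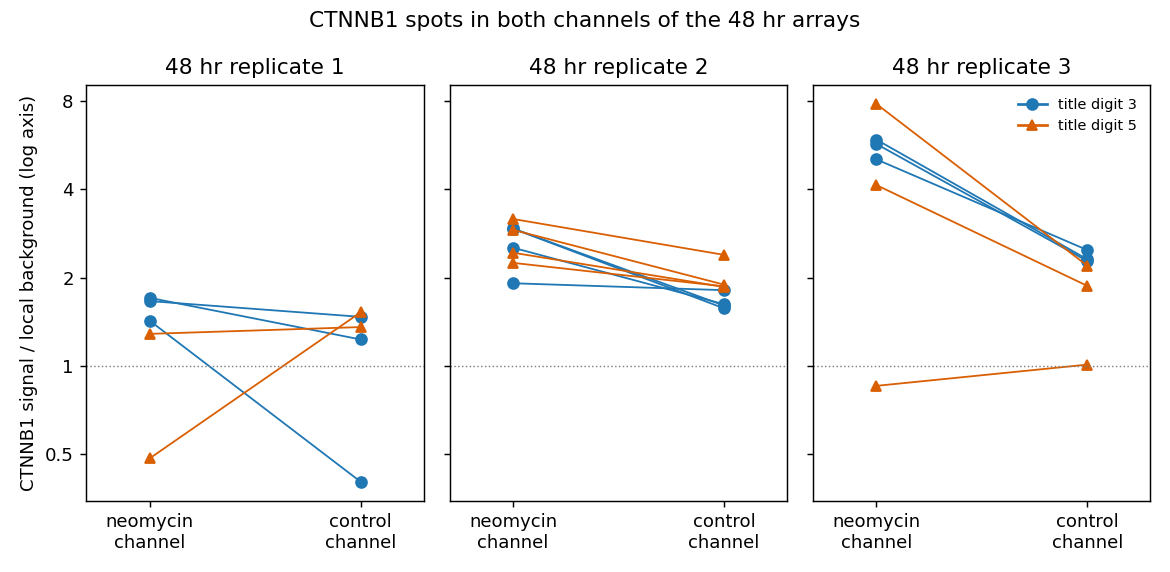
CTNNB1 signal over local background (vertical axis, log scale) in the neomycin channel and the control channel of each 48 hr array, with a line per array and a panel per replicate. The neomycin channel is above the control channel on all 8 arrays of replicate 2 and on 5 of 6 arrays of replicate 3.

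Days of image quantification, which the headers give, held more than 1 time point in 3 of 15 cases. On 2 of these days both 24 hr and 48 hr arrays of replicate 2 were quantified. CTNNB1 averaged 0.81 at 48 hr and 0.03 at 24 hr on the first of them (4 arrays each), without overlap, and 0.73 at 48 hr and -0.33 at 24 hr on the second (4 arrays each), also without overlap. On the other such day, which held 24 hr and 0 hr arrays of replicate 3, it averaged 0.07 over 6 arrays at 24 hr and -0.11 over 7 arrays at 0 hr. On that day TCF7L2 averaged -0.17 at 24 hr and 0.37 at 0 hr, LEF1 0.05 and 0.11, and TCF7 -0.08 and 0.15. LEF1, on the first 2 days, averaged 0.08 at 48 hr on each, and -0.16 and -0.01 at 24 hr. TCF7L2 averaged 0.14 and 0.003 at 48 hr on these days, and 0.01 and -0.28 at 24 hr. TCF7 went the other way, with 0.004 and -0.0004 at 48 hr and 0.16 and 0.33 at 24 hr. For LEF1, TCF7L2 and TCF7 the arrays of both times overlapped on each day. No such day held arrays of 48 hr replicate 3.

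The TCF/LEF probes did not pass a test at any time. LEF1, the lymphoid enhancer factor, had log2 ratios of 0.03, -0.02 and 0.08 in replicates 1, 2 and 3 of the 0 hr group. Those of the 24 hr group were -0.14, -0.09 and 0.05, and those of the 48 hr group were -0.14, 0.08 and -0.25. The values of the 3 times overlapped. Its late difference was -0.09 ± 0.10 (SE, limma, adjusted p = 0.997 by Benjamini-Hochberg over the 1281 probes), with a 95% interval from -0.30 to 0.12. The upper bound corresponds to 1.09-fold in the measured ratio. The probes are human and the RNA is from chicks, and the authors propose that such cross-species hybridization may compress changes. The bound is therefore no limit on the change of the RNA itself. LEF1 was -0.25 in 48 hr replicate 3, where CTNNB1 was highest, and this was the lowest of its 9 values. The orientations had opposite signs there, with means of 0.19 on digit 3 and -0.69 on digit 5. It was above 0 on 3 of 6 arrays, and its lowest array was -1.69. The spots lay below local background, at medians of 0.80 times in the neomycin channel and 0.77 times in the control channel.

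TCF7L2, the family member best known from gut epithelium, had log2 ratios of 0.06, -0.16 and 0.02 in the 0 hr replicates. They were -0.03, -0.13 and -0.17 after 24 hr, and -0.27, 0.07 and 0.06 after 48 hr. Here too the 3 times overlapped. Its late difference was 0.02 ± 0.10 (SE, limma, adjusted p = 0.997), with a 95% interval from -0.21 to 0.25, which reaches 1.19-fold in the measured ratio. All 3 of its 24 hr values were below 0, and their mean of -0.11 had an adjusted p of 0.853 (limma). TCF7L2 was slightly above 0 in the replicates with high CTNNB1 (0.07 and 0.06) and below it in the other 48 hr replicate. In both of the former, the orientations had opposite signs. Digit 3 and digit 5 averaged -0.11 and 0.25 in 48 hr replicate 2, and 0.18 and -0.06 in 48 hr replicate 3. The spots of 48 hr replicate 2 lay near background, at medians of 1.21 times in the neomycin channel and 1.15 times in the control channel.

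TCF7, best known from T cells, had log2 ratios of -0.18, -0.11 and 0.07 in the 0 hr replicates, with -0.04, 0.25 and -0.08 after 24 hr of recovery and -0.15, 0.00 and -0.10 after 48 hr. Its spots in 48 hr replicates 1, 2 and 3 lay at medians of 0.81, 1.47 and 1.22 times local background in the neomycin channel. The control channel medians were 0.69, 1.40 and 1.46. The TCF7 value of 48 hr replicate 3 was a mean of opposite orientations, -0.32 on digit 3 and 0.12 on digit 5. In a fit of all gene probes without the brightness filter its late difference was -0.07 ± 0.10 (SE, limma, adjusted p = 0.998), with a 95% interval from -0.29 to 0.15. Its highest replicate value, 0.25 in 24 hr replicate 2, was the mean of opposite orientations, with 4 of 4 arrays above 0 on digit 3 (mean 0.72) and 0 of 4 on digit 5 (mean -0.23). LEF1 showed the same in 24 hr replicate 3, at 0.54 over the digit 3 arrays and -0.44 over the digit 5 arrays. Across all tested probes the orientations of a replicate correlated between -0.40 and 0.14, below 0 in 7 of 9 replicates and below -0.3 in 4. The direction of the ratios rests on the image names in the headers, and the deposited log2 ratios are turned in the same way.

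**Figure D3:**
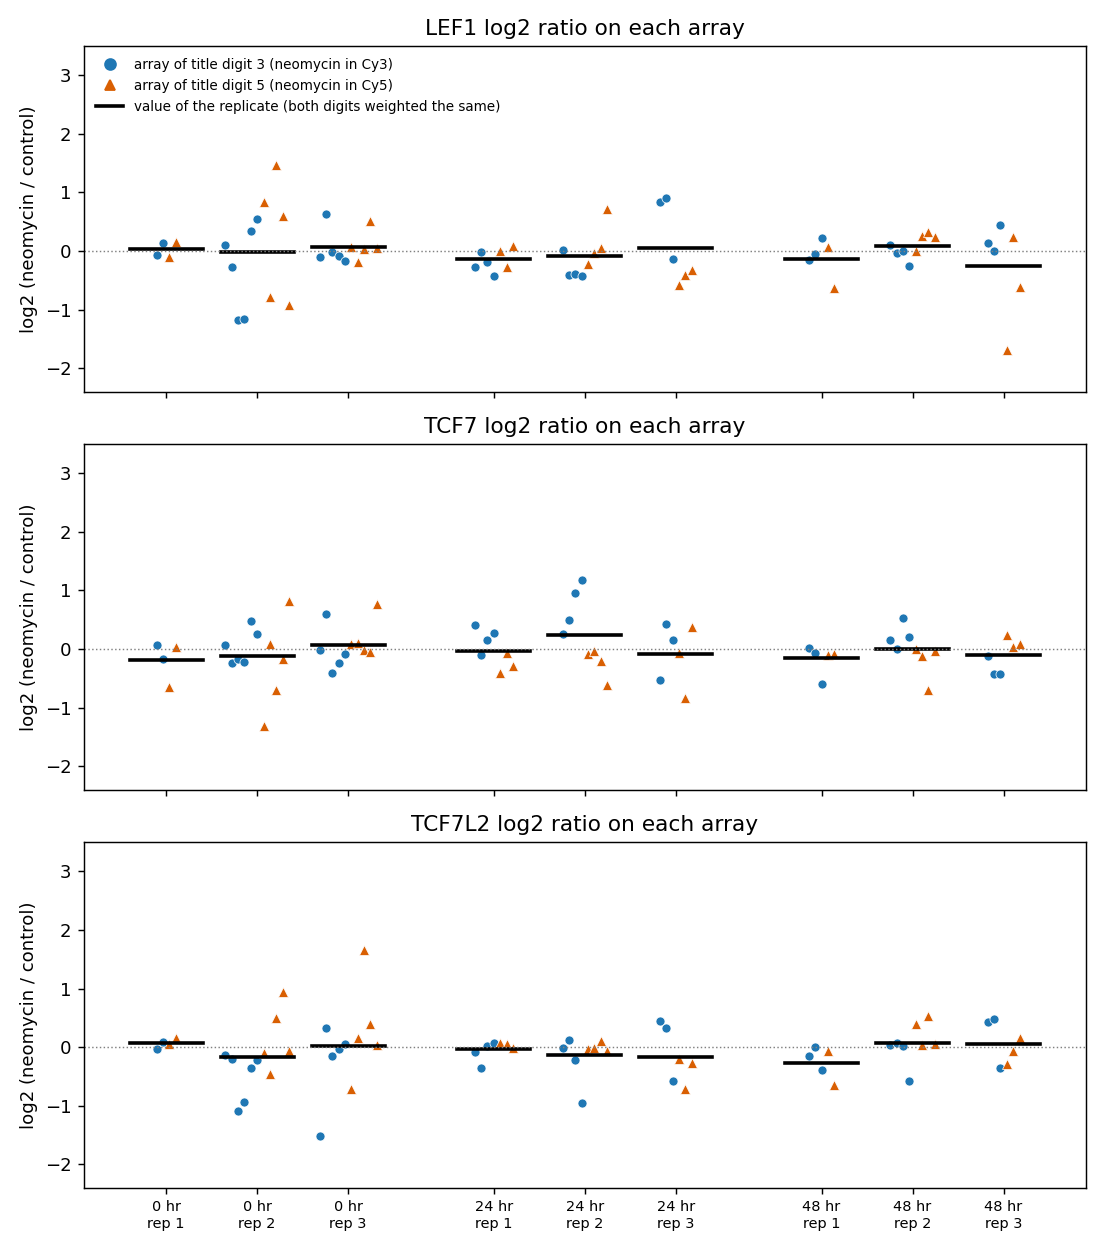
Log2 ratio of neomycin over control (vertical axes) of LEF1, TCF7 and TCF7L2 on each of the 65 arrays, by recovery time and replicate, on the scale used for CTNNB1. Circles are digit 3 arrays, triangles digit 5 arrays and black bars the values of the replicates, all of which lie between -0.27 and 0.25.

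Of the 2 TCF/LEF probes tested, 0 were called at an adjusted p under 0.05 (limma) in any of 5 comparisons, and 0 had an unadjusted p under 0.05, the lowest of the 10 being 0.22. Among all 1281 probes, 0% were called at 0, 24 and 48 hr and late against early, and 0.39% (5 probes) in the mean over the 3 times. Unadjusted p was under 0.05 with a higher neomycin value for 3.83% of probes at 0 hr, 2.97% at 24 hr, 5.07% at 48 hr, 1.95% late against early and 7.96% in the mean. It was under 0.05 with a lower neomycin value for 2.58%, 2.97%, 2.34%, 1.01% and 4.22% in the same comparisons. In these small groups a missed threshold does not show that LEF1 and TCF7L2 were unchanged. The upper limits of their late difference, 0.12 and 0.25, were below the 0.93 of CTNNB1. That value was selected for its height and has no interval, so the comparison is no test. Without 48 hr replicate 3 the CTNNB1 value was 0.44. The limits of LEF1 and TCF7L2 hold for the measured ratios and for this processing. With the background subtracted the late difference was -0.34 for LEF1 and 0.31 for TCF7L2, each outside its interval. In rank order of the late difference CTNNB1 was first, TCF7L2 was 564th and LEF1 was 1045th of 1281. By the 48 hr mean alone CTNNB1 (0.82) was 2nd, behind the probe IGFBP1 (0.84), which is described below. TCF7L2 was 897th and LEF1 1088th by that mean.

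**Figure D4:**
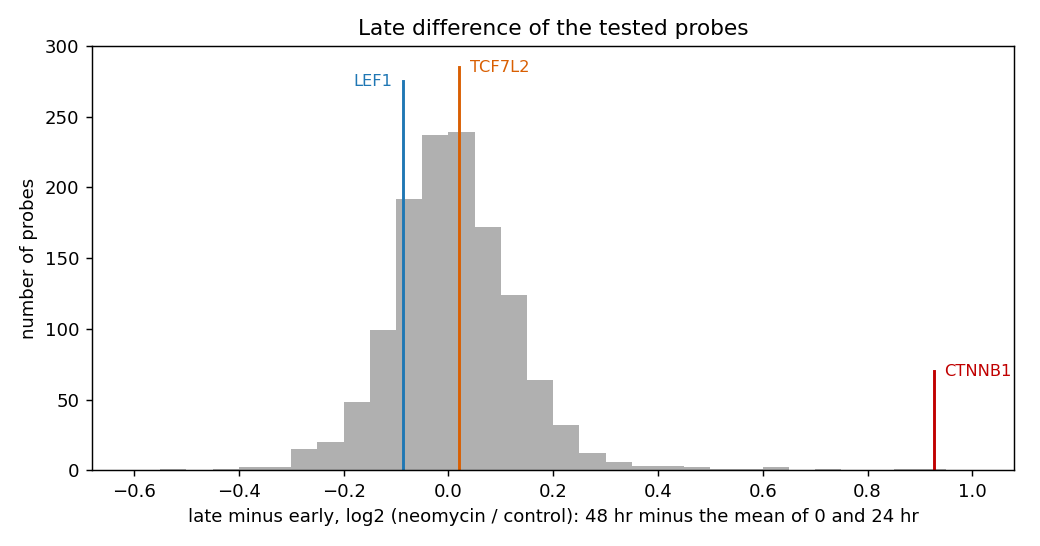
Number of tested probes (vertical axis) by late difference, the log2 ratio at 48 hr minus the mean of 0 and 24 hr (horizontal axis). The lines mark LEF1 at -0.09, TCF7L2 at 0.02 and CTNNB1, which was selected on this measure, at 0.93.

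Across the 9 replicate values, CTNNB1 correlated with TCF7L2 at a Pearson r of 0.43 (Spearman rho 0.13), with LEF1 at -0.45 (rho -0.07) and with TCF7 at -0.19 (rho -0.37). Without the 2 high 48 hr replicates, r was -0.51 for TCF7L2, -0.08 for LEF1 and -0.45 for TCF7. The replicates share arrays with the other probes, and the figures are descriptions over n = 9. The same data hold probes named TCF3 and TCF4, whose symbols are also used for TCF7L1 and TCF7L2 but as official symbols stand for E-box binding factors of another family. TCF3 averaged -0.17, -0.07 and -0.05 at 0, 24 and 48 hr. TCF4 averaged -0.06, -0.28 and -0.06, and its 24 hr value had an unadjusted p of 0.0168 and an adjusted p of 0.798 (limma). Another probe, named TCF-3 and singled out after its values were seen, is not tied to a gene by the files. Whether it reads TCF3, TCF7L1 or another gene is therefore not known. It had log2 ratios of -0.09, 0.51 and -0.12 in 48 hr replicates 1, 2 and 3, a late difference of 0.20 and an adjusted p of 0.997 (limma). In 48 hr replicate 2 it was above 0 on 8 of 8 arrays, averaging 0.67 on digit 3 and 0.34 on digit 5. Its median there was 6.62 times local background in the neomycin channel and 4.77 times in the control channel. In 48 hr replicate 3, where CTNNB1 was highest, it was above 0 on 3 of 6 arrays.

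TCF7L2 differed between replicates in its level. On the 5 arrays of 48 hr replicate 1 its brightness ran from 1993 to 6174 with a median of 4114, while its medians in the other 8 replicates lay between 210.5 and 1193. Its spots there stood at a median of 10.2 times local background in the neomycin channel and 9.29 times in the control channel, and its ratios ran from -0.64 to 0.00. With all arrays kept, the value of that replicate, -0.27, was the lowest of its 9, and the other 8 lay between -0.17 and 0.07. Relative to the median change of all probes, TCF7L2 was 7.60-fold brighter on these arrays than on the rest, a difference that 9 of 1507 probes reached, TCF7L2 included. CTNNB1 (0.81-fold), LEF1 (1.05-fold) and TCF7 (0.81-fold) had no such change. Both channels were bright together, and why was not tested.

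**Figure D5:**
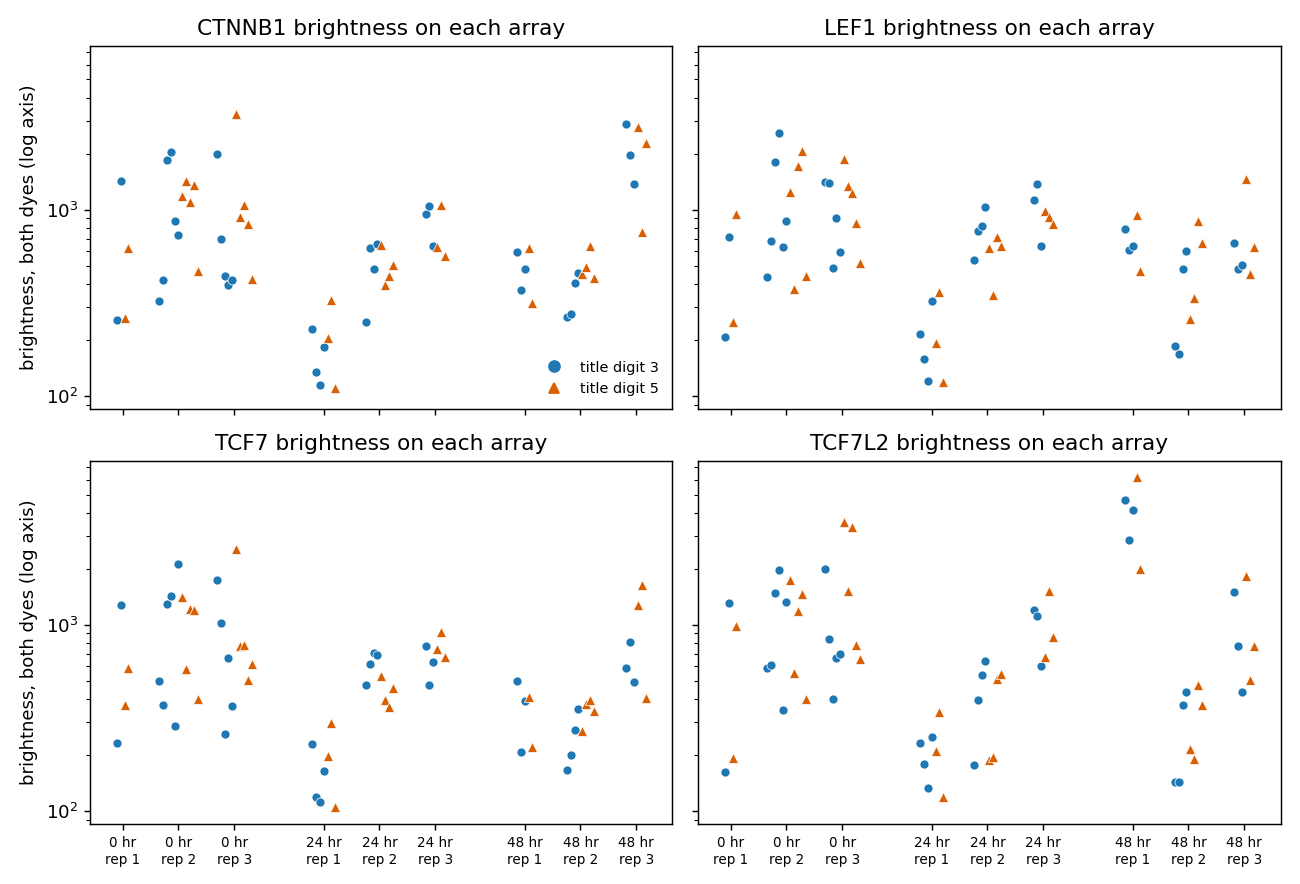
Brightness of CTNNB1, LEF1, TCF7 and TCF7L2 (geometric mean of both dyes, log axes) on each array, by recovery time and replicate, with circles for digit 3 and triangles for digit 5. TCF7L2 lies between 1993 and 6174 on the 5 arrays of 48 hr replicate 1, and CTNNB1 between 1377 and 2867 on 5 of the 6 arrays of 48 hr replicate 3.

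The probes whose replicate values were most like those of CTNNB1 were IGFBP1 (r = 0.99), SFRP4 (0.95), RNF14 (0.95), PPARGC1 (0.93) and ATBF1 (0.93). Their Spearman rho was 0.85, 0.70, 0.68, 0.40 and 0.97 in the same order. Without 48 hr replicates 2 and 3, r was 0.83 for IGFBP1, 0.72 for SFRP4, 0.52 for RNF14, -0.02 for PPARGC1 and 0.84 for ATBF1, so the likeness of PPARGC1 rested on these replicates. The values left include 0 hr replicate 3, the lowest of CTNNB1 (-0.35), IGFBP1 (-0.24), SFRP4 (-0.36), RNF14 (-0.19) and ATBF1 (-0.19). That replicate held arrays of another brightness pattern, without which CTNNB1 was -0.10. Whether the likeness holds without these arrays was not tested. All of these correlations are descriptions over n = 9 values, or fewer, that share arrays. IGFBP1 encodes an insulin-like growth factor binding protein, SFRP4 a secreted Wnt antagonist, RNF14 a RING finger coactivator of the androgen receptor, PPARGC1 a nuclear receptor coactivator and ATBF1 a large homeodomain and zinc finger factor. IGFBP1 had log2 ratios of -0.12, 0.83 and 1.83 in 48 hr replicates 1, 2 and 3, near those of CTNNB1 in each. SFRP4 had -0.05, 0.18 and 1.46, RNF14 had 0.03, 0.18 and 1.28, and PPARGC1 had -0.22, 0.20 and 1.28, so these 3 were high in replicate 3. ATBF1 had 0.15, 0.23 and 0.61.

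Of these 5 probes, 4 shared a place on the slide with CTNNB1. The slide holds 4 subgrids of 32 rows and 24 columns, and CTNNB1 was printed in row 29. IGFBP1, SFRP4, RNF14 and PPARGC1 lay within 2 rows and 2 probe places of the same position in other subgrids. Over all subgrids, 74 tested probes (5.78%) lay within that distance, CTNNB1 left out. The member TCF7L2 was among them, in row 28 of the subgrid that held CTNNB1. The log2 ratio of 5 of the 74 (6.76%) was above 1 in 48 hr replicate 3, against 3 of the other 1206 (0.249%). Of these 5, 4 were the probes whose places led to the window, and the remaining one was PSMC1, a proteasome subunit, at 1.45. Likewise 4 of the 74 (5.41%) were above 0.5 in 48 hr replicate 2, against 10 of the other 1206 (0.829%). The medians of the 74 were 0.08 in replicate 2 and 0.01 in replicate 3, against 0.01 and -0.02 over the others, so most probes of these places were near 0. The window was set after the positions and values were seen, so neither count is independent of it. The first restates what led to it, and the second includes IGFBP1, at 0.83 in 48 hr replicate 2. The part of the place in the CTNNB1 ratio was not tested.

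Other listed genes of the pathway that were matched on the slide were mostly near 0. Of 62 listed genes 33 were matched by name and 30 were tested, and 0 were called at an adjusted p under 0.05 in any comparison (limma). The match used the symbol and, for some genes, an older name, so genes printed under other names may have been missed. SALL4, which the paper lists under a LOC name, was not matched. At 48 hr, 2 of the 30 were higher and 2 lower at an unadjusted p under 0.05 (13.3%), beside 5.07% higher and 2.34% lower over all 1281 probes. The list's median log2 ratio was -0.01 at 48 hr and -0.03 late against early, beside 0.01 and 0.01 over all tested probes. Among 6 coactivators and DNA-bound cofactors, SMARCA4, the ATPase of the BAF remodelling complex, had 1.92, -0.05 and 0.27 in 48 hr replicates 1, 2 and 3 (mean 0.71, unadjusted p = 0.0178, adjusted p = 0.598, limma). Its high replicate was the one in which CTNNB1 was near 0. Among 7 corepressors and inhibitors, which included TLE4, HDAC1, HDAC2 and APC, 0 had an unadjusted p under 0.05 in any comparison. PPARGC1, named above, was one of these 7 by the grouping of the list, although it is a nuclear receptor coactivator. Its mean at 48 hr, 0.42, was the highest of the 7. The Wnt antagonist SFRP4, named above, was not on the list and had -0.05, 0.18 and 1.46 in 48 hr replicates 1, 2 and 3.

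Among 16 tested target genes, the homeobox gene EN1 averaged -0.22 at 48 hr (unadjusted p = 0.0353, adjusted p = 0.619, limma) and the neurogenic factor NEUROG1 averaged 0.17 (unadjusted p = 0.0458, adjusted p = 0.632). The targets MYC, MYCN, JUN and MITF had unadjusted p over 0.05 in all 5 comparisons. The remaining tested gene, TCF8, was listed in a group related to cell junctions and not among the targets. TCF8, the zinc finger repressor also called ZEB1 and no relative of the TCF/LEF factors, was below 0 in 9 of 9 replicates. Its means at 0, 24 and 48 hr were -0.30, -0.36 and -0.31, with -0.32 ± 0.07 over all times (SE, limma, unadjusted p = 0.000351, adjusted p = 0.0748). Its late difference was 0.03 ± 0.14 (SE, limma, adjusted p = 0.997).

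Few markers of the cells in the tissue could be read beside the CTNNB1 values. Of the hair cell markers 3 of 5 were matched on the slide by name and 1, ATOH1, was bright enough to test, at -0.03, -0.03 and 0.00 in 48 hr replicates 1, 2 and 3. POU4F3 and GFI1 were too dim to test. In 48 hr replicate 3, where CTNNB1 was highest, the medians were -0.09 over 4 supporting cell and sensory epithelium markers, 0.00 over 5 stroma markers, 0.05 over 4 blood cell markers and -0.01 over 5 proliferation genes. The same medians in 48 hr replicate 2 were -0.08, -0.04, -0.05 and 0.04. In 48 hr replicate 1, where CTNNB1 was near 0, they were 0.14, 0.11, 0.18 and 0.22. All 4 supporting cell and sensory epithelium markers were above 0 in replicate 1, against 2 of 4 in replicate 2 and 1 of 4 in replicate 3, so these medians were higher in the replicate without the CTNNB1 rise. The summed raw signal of the 8 supporting cell and sensory epithelium probes at 48 hr ran from 2251 to 17808 in the neomycin channels and from 1514 to 25280 in the control channels. No marker probe defines the labelled tissue well enough on this slide to check it, and the part of cell composition in the CTNNB1 ratio was not tested.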

How the data were processed

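Per the file headers, the authors deposited intensities written by ImaGene 4.1, a mean per spot, dye and local background, not normalized. The deposited series matrix holds log2 ratios, which equalled the raw foreground ratio turned to neomycin over control. The files name no genome build, so the chicken annotation was used for names only (5 of 5 rule genes matched). Intensities were corrected by normexp (offset 50) and loess within arrays in limma 3.58.1 (R 4.3.3). Digit 3 ratios were turned, 8 marked spots were left out, and duplicate spots, arrays and orientations were averaged to 9 replicate values. A brightness minimum of 1000 would have removed 83% of probes, so the dimmest 15% (226) were removed. One fit (lmFit, eBayes) had a coefficient per time, tested two-sided against 0. The pipeline was tested on simulated data in which 200 of 1281 probes were changed, for each size of change. Of these, 99.5% were called late against early for a change of 1 log2 unit, and 78.5% for a change of 0.5. In the measured data 0 of 1281 probes were called in that comparison. With so many changed probes an adjusted p under 0.05 is easier to reach. These percentages are therefore not the chance of detecting a change in LEF1 or TCF7L2. Arrays limit precision by their number. Per the methods, each replicate was a separate biological sample of epithelia pooled within its treatment and time. Members, lists and tests were chosen with earlier results of these data known. Named genes were the members, the look-alike symbols TCF3 and TCF4, pathway genes with an unadjusted p under 0.05 in any comparison, and the 5 probes most correlated with CTNNB1. Other pathway genes, PSMC1 and the hair cell markers were named after their values were seen. Alternatives (30 planned, 2 added) are given in the closing section.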

Additional observations from a re-analysis of the deposited data

Results flagged for a closer look

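Of 32 sets of 4 to 10 arrays (a member probe in a replicate), 7 held an array whose gap to the rest was large for the set's range (Dixon's criterion), where chance gives about 1 in 20. CTNNB1 was -2.01 on array 1 of digit 3 in 0 hr replicate 3, against -0.69 to 0.19 on the other 9. This was one of the arrays of another brightness pattern. CTNNB1 was -1.27 and LEF1 was 0.72 on array 4 of digit 5 in 24 hr replicate 2, against -0.29 to 0.45 and -0.43 to 0.06 on the other 7. TCF7 was -0.59 on array 3 of digit 3 in 48 hr replicate 1, against -0.11 to 0.02 on the other 4, and the image name of this array carries a remark that it is poor. TCF7L2 was -0.36 on array 2 of digit 3 in 24 hr replicate 1, against -0.09 to 0.07. It was also -0.96 on array 4 of digit 3 in 24 hr replicate 2, against -0.23 to 0.12, and -0.58 on array 4 of digit 3 in 48 hr replicate 2, against 0.01 to 0.53. The array of 24 hr replicate 1 had 1 subgrid, which held no member, out of place by 1 row. None of the arrays of 48 hr replicates 2 and 3 stood apart in this way for CTNNB1.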

How the results depend on the processing

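CTNNB1 stayed above 0 at 48 hr and late against early under all 30 alternatives run for it. Its moves were smaller than the SD of the 48 hr replicates, 0.96. This SD exceeds both main values, so a fall to 0 would also have passed, and this measure shows no stability. Leaving out a replicate gave 0.33 to 1.29 at 48 hr and 0.44 to 1.39 late against early, the lowest without 48 hr replicate 3, which thus moved the mean by more than 1.5 times, and the highest without 48 hr replicate 1. The other alternatives kept both values within these ranges, for example 0.61 and 0.72 from the series matrix. With the replicate number as a block the values were 0.82 and 0.93, and 0 TCF/LEF probes were called. Same-numbered samples correlated between -0.11 and 0.19 in their deviations, over 0.1 in 2 of 9 pairs, so the numbers were not taken to pair samples. TCF/LEF calls stayed at 0, also at an unadjusted p under 0.05, in every alternative with a TCF/LEF probe tested. At a brightness of at least 800 none was left to test, and the methods' test was not run late against early. All-probe calls in the mean, 5, ran from 0 to 60, the highest in a fit over arrays, and were 16 with the block. Values near 0 changed sign. LEF1 was 0.051 at 48 hr and 0.081 late on digit 3 alone, and 0.011 late in the series matrix. TCF7L2 at 48 hr was 0.0014 without background correction, 0.24 with subtraction and -0.11 to 0.064 on leaving out a replicate. With subtraction the late differences were 0.31 for TCF7L2 and -0.34 for LEF1, both outside their intervals above. Late, TCF7L2 was -0.0074 with median centring, -0.091 on digit 5 alone, -0.010 on first spots, -0.027 without the arrays of another pattern, -0.056 in the series matrix, and -0.038 to 0.13 on leaving out a replicate. The moved grid (0.92 and 1.03 for CTNNB1) and leaving out the array noted as poor (0.85 and 0.96) were chosen after seeing the data. Weak signals limit all members.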
